A study of Mus musculus with 5 samples.

Results

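The 3 Mb block of mouse chromosome 10 from 79000000 to 82000000 (mm10, the build named in the submitters' processing notes) held 333 of the 45378 V5-KLF5 peaks in the study, and the rest of chromosome 10 held 2153. A peak was a member where its summit, the position of highest signal, fell between those limits. The members were thus picked by the position of their own summits, so the number of peaks, their spacing and their values are given as a description and no test is attached to them. Cross-linked chromatin was precipitated with an anti-V5 antibody and sequenced (ChIP-seq) in wild-type mouse embryonic stem (ES) cells overexpressing V5-tagged KLF5, which per the labels came from C57B6/J mice. The controls were a normal mouse IgG precipitate and the input DNA of these cells. For untagged wild-type cells of the mouse ES line ES-D3 there were likewise an anti-V5 precipitate and input DNA. Each group was 1 library, so nothing here has a replicate check. KLF5 was overexpressed and tagged, and the level of the protein was not measured in these files.

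KLF5 is a Krüppel-like factor, a zinc-finger protein that binds GC-rich and CACCC-type DNA and takes part in the self-renewal of ES cells. Its family shares these target sequences with the SP factors, which bind the GC boxes found in many promoters of broadly expressed genes. Gene-dense stretches of the genome pack such promoters close together, along with the introns and short spacers between them.

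After duplicates were removed, the V5 library of the tagged cells kept 23.2 M (mega) tags of 28.8 M, the IgG library 24.5 M of 31.9 M and the V5 precipitate from untagged cells 21.8 M of 28.2 M. The IgG list (3 peaks in all) and the list of the untagged cells (0 peaks) held 0 peaks on chromosome 10. The run name in the header of the untagged list gives another mouse ES line than its label, so the identity of that control is uncertain. Control signal below the calling threshold could not be seen in peak lists. The ES identity of the cells could not be checked against marker genes, since no expression was measured.

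Upstream sequences of 6 genes of the block are shown because a V5-KLF5 summit lay within 1 kb of their start and because the densest or highest peaks of the block, or the tumour-suppressor gene Stk11, are described at these genes. Each line is the 250 bases upstream of an annotated RefSeq start (GRCm38.p6, the assembly that mm10 names), written 5′ to 3′ on the strand of the gene. Capitals mark every match, on either strand, to 3 motifs. They are the KLF-type motif GGGNGTGG, the CACCC-type motif CCACCC, and the GC box, spelled GGGCGGG. GGGNGTGG and CCACCC can overlap, where N is G. Where a gene had several annotated starts, the start nearest to a summit is given. For Misp, the gene nearest to the second highest peak, none is printed.
Midn, chr10:80149432-80149681, plus strand: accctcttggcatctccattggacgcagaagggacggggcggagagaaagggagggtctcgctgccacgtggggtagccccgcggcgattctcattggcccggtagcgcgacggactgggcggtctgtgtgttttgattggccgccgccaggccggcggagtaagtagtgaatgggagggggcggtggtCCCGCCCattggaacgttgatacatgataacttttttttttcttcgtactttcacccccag
Stk11, chr10:80115545-80115794, plus strand: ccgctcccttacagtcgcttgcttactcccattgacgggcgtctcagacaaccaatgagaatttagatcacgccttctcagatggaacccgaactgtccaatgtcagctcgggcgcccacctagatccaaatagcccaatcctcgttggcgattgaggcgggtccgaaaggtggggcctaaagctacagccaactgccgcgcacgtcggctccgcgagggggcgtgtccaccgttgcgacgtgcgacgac
Zbtb7a, chr10:81136021-81136270, plus strand: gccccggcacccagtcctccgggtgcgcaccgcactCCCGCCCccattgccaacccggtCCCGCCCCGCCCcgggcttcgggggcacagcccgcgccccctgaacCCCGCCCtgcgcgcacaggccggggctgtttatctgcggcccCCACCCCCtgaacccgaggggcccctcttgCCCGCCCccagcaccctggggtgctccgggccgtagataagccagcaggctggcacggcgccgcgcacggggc
Nfic, chr10:81427174-81427423, minus strand: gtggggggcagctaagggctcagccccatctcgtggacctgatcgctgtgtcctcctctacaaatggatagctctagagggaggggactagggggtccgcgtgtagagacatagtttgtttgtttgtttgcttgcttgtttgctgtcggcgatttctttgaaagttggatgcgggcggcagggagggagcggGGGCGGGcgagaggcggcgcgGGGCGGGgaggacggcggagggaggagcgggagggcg
Celf5, chr10:81482700-81482949, minus strand: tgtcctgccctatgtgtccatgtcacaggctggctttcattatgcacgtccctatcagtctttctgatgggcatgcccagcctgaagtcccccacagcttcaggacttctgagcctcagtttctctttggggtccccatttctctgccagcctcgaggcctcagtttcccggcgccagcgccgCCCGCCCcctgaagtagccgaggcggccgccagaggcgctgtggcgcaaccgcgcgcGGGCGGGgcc
Gng7, chr10:81014926-81015175, minus strand: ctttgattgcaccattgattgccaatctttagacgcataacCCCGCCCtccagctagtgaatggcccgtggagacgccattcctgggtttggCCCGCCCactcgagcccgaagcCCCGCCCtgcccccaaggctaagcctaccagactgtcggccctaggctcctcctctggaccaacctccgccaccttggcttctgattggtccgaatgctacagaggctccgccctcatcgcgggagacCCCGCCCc

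Zbtb7a, which encodes a zinc-finger transcription factor of the ZBTB family, had the most GC-rich of these windows, with 78.0% G and C, 5 matches to GGGCGGG and 1 match each to GGGNGTGG and CCACCC. Its nearest summit lay 834 bp upstream of that start with a pileup of 47. Pileup is the height of the extended tags at the summit as the authors' peak caller gave it. Gng7, a G-protein gamma subunit gene, had 4 matches to GGGCGGG and a summit 103 bp upstream with a pileup of 18. Nfic and Celf5 had 2 matches to GGGCGGG each, with summits 160 bp downstream (pileup 18) and 90 bp upstream (pileup 28). Midn had 1, with a summit 506 bp upstream and a pileup of 60. Stk11, which encodes the kinase LKB1, had no match in the window and still had a summit 89 bp upstream of its start with a pileup of 34. The number of matches therefore did not order these promoters by the height of their nearest peak.

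Peaks were packed together in the block. It held 111 peaks per Mb (95% Poisson interval 99.4 to 123.6, for counting error only), against 17.3 per Mb (16.6 to 18.0) over the rest of chromosome 10 between its first and last annotated gene, a ratio of 6.42. The block made up 2.35% of that length and held 13.4% of the chromosome's peaks. It also held 14.3% of its protein-coding genes, 143 of them, or 47.7 per Mb against 6.89 per Mb in the rest, a ratio of 6.92. Per protein-coding gene there were 2.33 peaks in the block and 2.51 in the rest. Coding genes in the block were shorter, with a median length of 10.1 kb against 20.3 kb in the rest. Peaks covered 6.45% of the bases of the block and 0.864% of the rest.

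**Figure D1:**
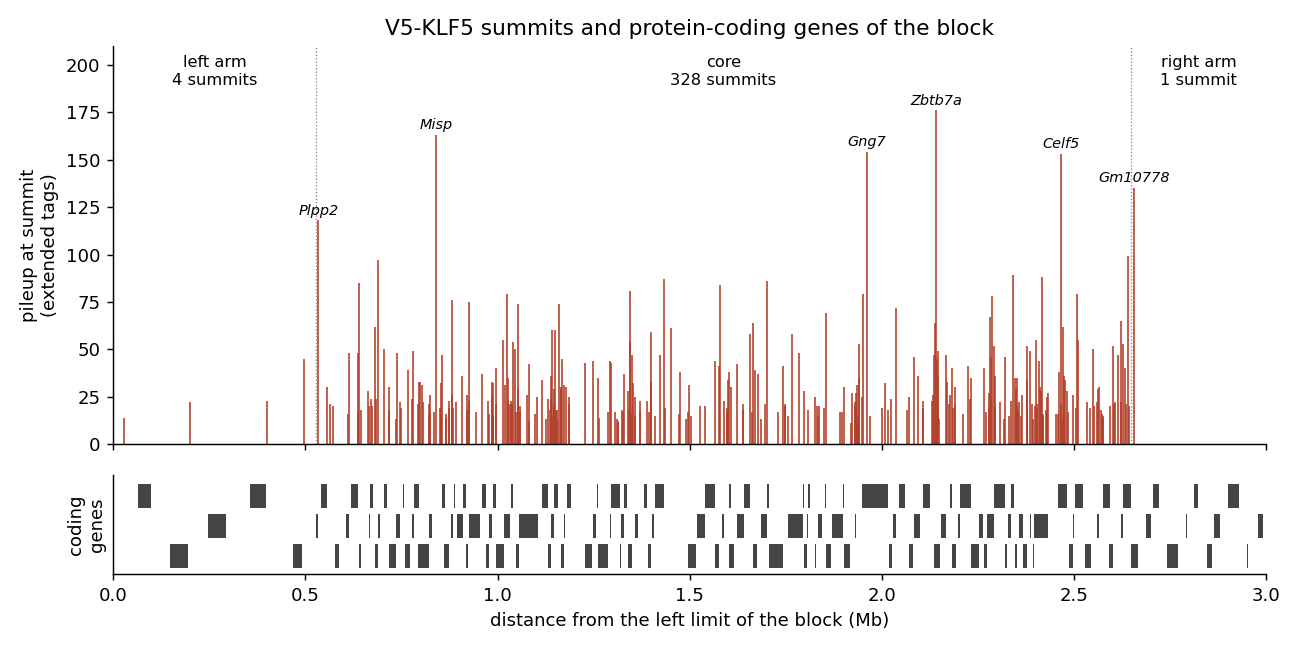
Each vertical line is a V5-KLF5 summit, with its pileup (extended tags) on the vertical axis and its distance in Mb from the left limit of the block on the horizontal axis, and bars below are the 143 protein-coding genes in 3 rows to keep them apart. The 6 highest peaks carry the name of the nearest coding gene, and dotted lines part the core with 328 summits from the arms with 4 and 1.

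The block was not evenly filled, and 3 segments were drawn after the values had been seen, at the left ends of Plpp2 and Gm10778. The core of 2.12 Mb, from Plpp2 to Ankrd24 (79526424 to 81649068), held 328 of the 333 summits, or 155 per Mb (138 to 172), over 125 coding genes. All 125 had a summit within 10 kb of an end. Among all protein-coding genes of the assembled chromosomes, 68.2% had one. These shares are not a like comparison, since the core was cut with the values known and 87.9% of its bases lay within 10 kb of an end. The left arm of 526 kb held olfactory receptor genes (Olfr), vomeronasal receptor genes (Vmn2r) and 2610008E11Rik. It had 4 summits, or 7.60 per Mb (2.07 to 19.5), with pileups of 14, 22, 23 and 45, and all 4 lay outside the genes, 3269 to 6562 bp from the nearest gene. The right arm of 351 kb held Gm10778, Zfp433, Zfp781 and 8 other genes. It had a single summit, inside Gm10778 at 81655429, with a pileup of 135 and a fold enrichment of 19.1 over input. From there to the right limit no peak was called over 345 kb and the other 10 coding genes. The sources used here do not say what was done with reads matching more than 1 place, so a lack of calls in arms that hold gene families with similar copies is uncertain.

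The limits themselves fell in sparse sequence. The first summit inside the left limit, at 79028161, lay 28.2 kb from it with a pileup of 14, and the nearest summit outside, in Slc1a6 at 78780134, lay 220 kb away from it with a pileup of 15. On the right, the Gm10778 summit lay 345 kb inside the limit, and the nearest summit beyond it, in AU041133 at 82128142, lay 128 kb outside with a pileup of 25.

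Cut into 3 Mb tiles aligned to the block, chromosome 10 gave 44 tiles. The block ranked 1 by summits and 2 by coding genes. The other tiles had a median of 42 summits and at most 179. That runner-up, at 127000000 to 129999999, had 145 coding genes, 2 more than the block, of which 50 were Olfr or Vmn symbols against 6 in the block. Without those receptor genes the block had 137 coding genes and the runner-up 95. Among the 35 tiles with at least 10 coding genes, the block ranked 19 by summits per gene, so its 2.33 summits per gene stood in the middle of a range of 0.143 to 6.64 over the others (median 2.51). Across the tiles other than the block, summits and coding genes had a Spearman correlation of 0.72, given as a description because tiles share 1 library and neighbouring sequence. On the same grid over all chromosomes, 874 tiles held a summit, their median was 35, and the block held the most. The grid was placed on the block, which favours it.

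**Figure D2:**
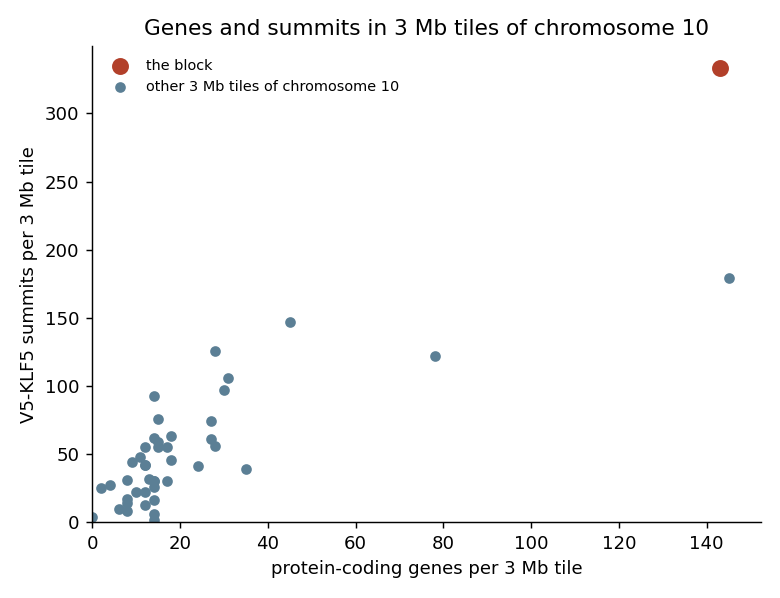
Each point is a 3 Mb tile of chromosome 10, with its protein-coding genes on the horizontal axis and its V5-KLF5 summits on the vertical axis. The block stands at 143 genes and 333 summits, and the tile with a like number of genes (145) has 179.

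Neighbouring summits in the block stood a median of 3972 bp apart (exact order-statistic interval 3379 to 4891) with quartiles of 1648 and 9261 bp, against 16081 bp (14711 to 17312) with quartiles of 4141 and 46469 bp in the rest. Under 5 kb lay 56.0% of the 332 gaps in the block and 27.5% of the 2151 gaps in the rest. Gaps under 1 kb made up 12.7% (9.27 to 16.7) in the block and 7.35% (6.28 to 8.53) in the rest, while the 5th percentile of the gaps was 721 bp in the block and 788 bp in the rest. Gaps over 50 kb numbered 3 of 332 in the block (0.904%) and made up 23.4% in the rest. Those 3 gaps, of 199.8, 172.0 and 96.8 kb, all lay among the olfactory and vomeronasal receptor genes of the left arm. Inside the core the widest gap was 41.4 kb, across Theg, a testis gene, and C2cd4c.

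**Figure D3:**
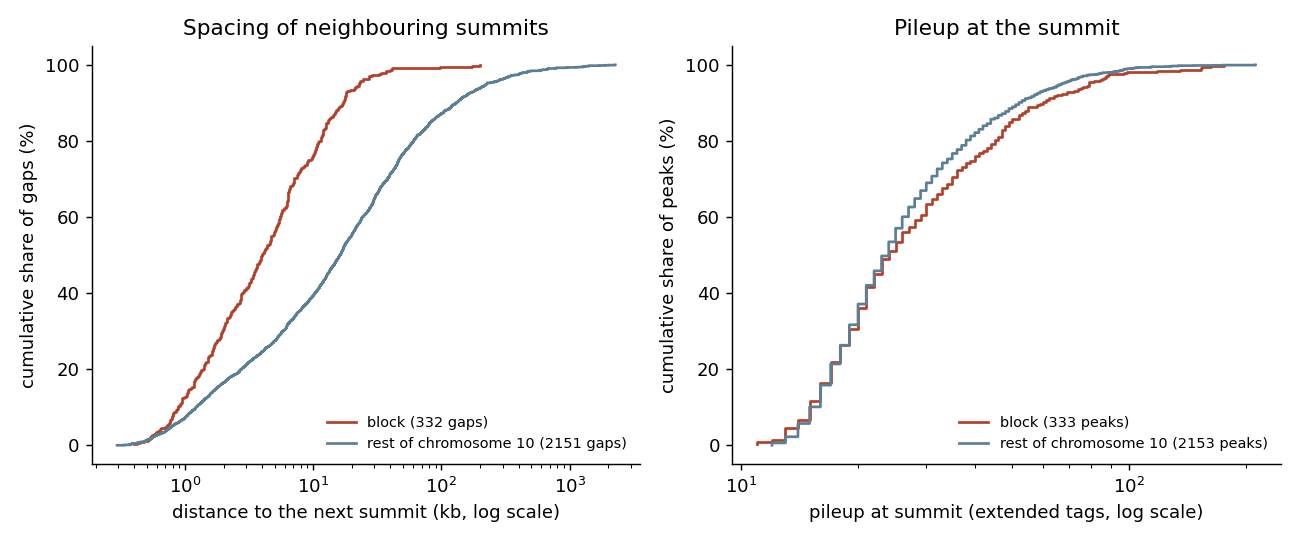
Cumulative shares of the distance to the next summit (left, kb on a log scale) and of the pileup at the summit (right, extended tags on a log scale), with the block in red and the rest of chromosome 10 in blue. The curves of spacing lie apart, with medians of 3972 and 16081 bp, while those of pileup share a median of 24 and part above it.

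Over the whole list the median peak had the same height in the block as in the rest, which did not hold among peaks picked by q. The median pileup was 24 (22 to 26) in the block and 24 (23 to 24) in the rest, and the median fold enrichment, the ratio of pileup to input background each raised by 1, was 5.12 (4.77 to 5.54) and 5.17 (5.12 to 5.28). At a −log10 q of at least 10, the median pileup was 41 in the block and 35 in the rest, a difference of 6. The interval of that difference, 1 to 10, carried the error of the block's median only and is thus too narrow. Among peaks enriched at least 10-fold the median pileup was 60 in the block and 60.5 in the rest. Over all peaks the block's upper quartile of pileup was 40 against 34 in the rest, and its 95th percentile 79 against 67. A fold enrichment of at least 10 was reached by 63 of 333 peaks in the block (18.9%, Clopper-Pearson interval 14.9 to 23.5) and by 276 of 2153 in the rest (12.8%, 11.4 to 14.3), beside 13.0% of the whole list. Peaks in the block were also longer, with a median of 479 bp (443 to 518) against 419 bp (411 to 432), and 9.31% (6.41 to 13.0) of them reached 1 kb, against 4.92% (4.05 to 5.92) in the rest. The input background under the peaks had a median of 3.64 (3.45 to 3.83) in the block and 3.45 (3.39 to 3.47) in the rest, and its part in these differences was not tested. For 110 of 333 block peaks (33.0%) and 810 of 2153 in the rest (37.6%) that background was the floor of 3.1 shared by the list and not a local input level.

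Of the 6 highest peaks of the block, 4 lay inside genes, 1 between genes and 1 at a start. The block held 5 of the 10 highest pileups of chromosome 10, beside 13.4% of the chromosome's peaks. That share depended on the cut. The block held 8 of the 50 highest (16%) and 22.8% of the peaks ranked 100 or better by pileup. The highest of the block, at 81140237 to 81142241, stood in Zbtb7a with a pileup of 176. Its fold enrichment was 43.2 over the floor of the background, and its summit lay 5591 bp downstream of the annotated start. The next, at 79840602 to 79841588, had a pileup of 163 and a fold enrichment of 32.6. It stood between Misp, a gene of mitotic spindle positioning, and Ptbp1, a splicing-repressor gene, 10679 bp outside the first and 13301 bp upstream of the start of the second. The peak inside Gng7 at 80960815 to 80961904 had a pileup of 154 and a fold enrichment of 27.7. The peak inside Celf5, an RNA-binding protein gene, at 81464136 to 81466182 had 153 and 27.5. The Gm10778 peak had 135 and 19.1, and the peak of Plpp2, a phospholipid phosphatase gene, had 118 and 18.7 with its summit 120 bp upstream of the start.

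Behind these stood a peak inside Ankrd24 (pileup 99), a peak 649 bp from an end of Cdc34, which encodes a ubiquitin-conjugating enzyme (97), and peaks inside the PDZ-protein gene Gipc3 (89) and Nfic, a nuclear factor I transcription factor gene (88). By fold enrichment the 10 strongest also took in the peaks at Mob3a (21.2), with its summit 54 bp upstream of the start, at Klf16 (20.1), a gene of KLF5's own family, and inside Adamtsl5 (20.0). Of the 63 block peaks enriched at least 10-fold, 31 lay inside a gene more than 1 kb from its ends, 26 lay within 1 kb of an end, 4 lay outside genes 1 to 10 kb from an end and 2 lay farther out. Within 1 kb of an annotated start were 30.2% of these peaks in the block and 21.7% of their 276 counterparts in the rest. Of all peaks whatever their enrichment, 28.8% in the block and 20.3% in the rest lay there.

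Gene ends took a larger share of summits in the block, but they also took a larger share of the sequence. Of the 333 block summits, 120 stood no more than 1 kb from a coding-gene end (36.0%, 30.9 to 41.4), against 510 of 2153 in the rest (23.7%, 21.9 to 25.5). That window held 16.6% of the bases of the block and 2.52% of the rest. Summit density inside the window was 240 per Mb (199 to 287) in the block and 163 per Mb (149 to 178) in the rest, a ratio of 1.48. Outside the window it was 85.2 per Mb (74.1 to 97.4) in the block and 13.5 per Mb (12.9 to 14.2) in the rest, a ratio of 6.29. Of the block summits, 213 of 333 lay outside the window. Inside genes and over 1 kb from an end lay 152 block summits (45.6%), against 39.2% in the rest, and outside genes and over 10 kb from any end lay 4 (1.20%), against 28.1% in the rest. Sequence within 10 kb of an end made up 81.2% of the block and 18.3% of the rest. Farther out, inside genes or not, summit density was 49.7 per Mb (33.0 to 71.8) in the block. In the rest it was 11.3 per Mb (10.6 to 11.9) at that distance. Ends were the outer limits of a gene, so summits at inner annotated starts counted as inside genes and outside the 1 kb window. Examples lay 48 bp from a start of Gpx4 and 84 bp from a start of Ankrd24.

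**Figure D4:**
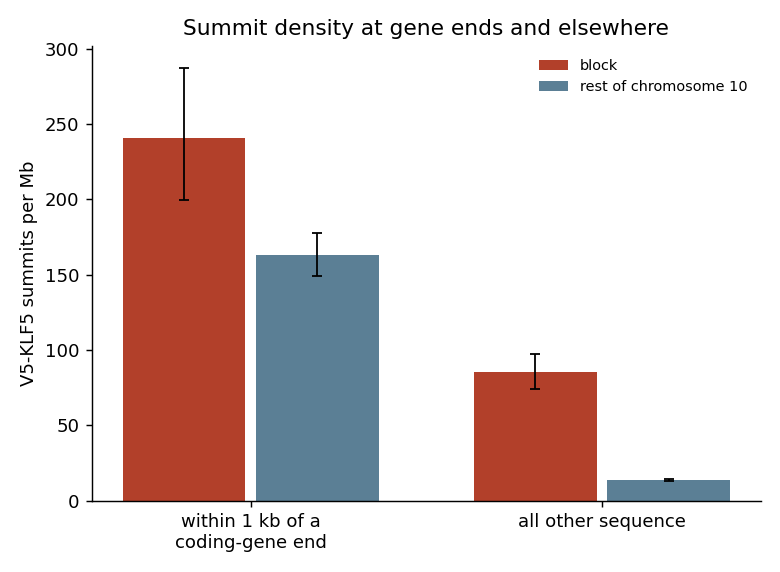
Bars give V5-KLF5 summits per Mb within 1 kb of a coding-gene end (left pair) and in all other sequence (right pair), for the block (red) and the rest of chromosome 10 (blue), with exact 95% Poisson intervals for counting error as error bars. The bars stand at 240 and 163 per Mb in the window and at 85.2 and 13.5 per Mb outside it.

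Summits at gene ends had a median pileup in the block of 29.5 (26 to 35), against 25 (24 to 27) at gene ends in the rest, and a median length of 612 bp (500 to 673), against 512 bp (481 to 548) in the rest. Summits inside block genes away from the ends had a median pileup of 21 (20 to 25), against 22 (21 to 23) in the rest. The 4 block summits outside genes and over 10 kb from any end had pileups of 163, 61, 38 and 16, against a median of 24 (23 to 25) for such summits in the rest. About annotated starts, of the 96 block summits within 1 kb of a start, 54 were upstream of it (56.3%, 45.7 to 66.4), against 237 of 438 in the rest (54.1%, 49.3 to 58.8), and their median distance was 168 bp in the block and 144 bp in the rest.

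Among the coding genes with an annotated start in the table of promoters, 82 of 119 in the block had a summit within 1 kb of a start (68.9%, 59.8 to 77.1), against 391 of 710 in the rest (55.1%, 51.3 to 58.8). Over all assembled chromosomes, 51.7% of such genes had one. A summit within 1 kb of either end was found at 102 of 143 block genes (71.3%, 63.2 to 78.6), against 452 of 858 in the rest (52.7%, 49.3 to 56.1). Of all coding genes of the assembled chromosomes, 50.5% had one. By the wider window of 10 kb around either end, 131 of 143 block genes had a summit (91.6%, 85.8 to 95.6), against 597 of 858 in the rest (69.6%, 66.4 to 72.6). That window says little about single genes here. It reached 2 or more coding genes from 240 of the 333 block summits (72.1%), against 14.9% of summits in the rest, and 81.2% of the bases of the block lay in it.

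Genes were then grouped by function. In each of the first 4 groups every member in the block had a summit within 10 kb. Their shares of starts with a summit had intervals that overlapped each other and that of all block genes. Of 14 transcription and chromatin genes with an annotated start, 13 had a summit within 1 kb of it, among them Mbd3, which encodes a subunit of the NuRD chromatin remodeller, Dot1l, a histone methyltransferase gene, Sirt6, a deacylase gene, Tcf3, a bHLH factor gene, and the Groucho-family genes Tle2 and Tle6. The exception was Creb3l3, a factor of liver and intestine. Of 8 RNA-binding and translation genes, all 8 had one, such as Ptbp1, the cold-inducible Cirbp, the ribosomal protein gene Rps15 and the elongation factor gene Eef2. Of 20 kinase and signalling genes 16 had one, such as Map2k2, a MAP kinase kinase gene, and Pip5k1c, a lipid kinase gene, and those without were Fgf22, Matk, Gna15 and Gna11. The 16 also took in Cdc34, Midn and Fzr1, whose products are known for protein degradation rather than for signalling. Of 7 mitochondrial and metabolic genes 5 had one, Gpx4 and Ndufs7 among them, and Uqcr11 and Nmrk2 did not.

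Genes of restricted tissues lay in the same sequence. Of 11 with an annotated start, 2 had a summit within 1 kb of it (18.2%, 2.28 to 51.8), Madcam1 and Hcn2. The 9 without were the granule protease genes Gzmm, Prtn3 and Elane, the complement gene Cfd, the receptor genes Kiss1r, Grin3b, Tbxa2r and S1pr4, and the protease gene Tmprss9. Counting either gene end in place of the start, 11 of all 17 genes in the group had a summit within 1 kb, beside 102 of 143 block genes. All 17 of the group had a summit within 10 kb, beside 131 of 143 block genes. For 6 of the 17 the highest of these peaks was nearest to an end of the gene itself, beside 63 of the 143. A single peak with a pileup of 76, nearest to Prtn3, was the highest for Prtn3, Elane and Cfd alike. The highest peaks near Gzmm (97), Tbxa2r (89), Izumo4 (86), Reep6 (81), S1pr4 (79) and Kiss1r (75) lay nearest to ends of Cdc34, Gipc3, Mob3a, Adamtsl5, Gna15 and Arid3a in that order. The Izumo4 peak had its summit between neighbouring gene ends, 141 bp from Izumo4 and 54 bp from Mob3a. Of the 6 Olfr and Vmn2r genes, 5 had a summit within 10 kb and 0 of 5 with an annotated start had one within 1 kb. Zfp433 and Zfp781 had none at either distance. The lists were made by hand with earlier results of these data known, and many coding genes of the block were in none of them. The share of each list depends on which genes were placed in it, so these counts describe the lists and test nothing.

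**Figure D5:**
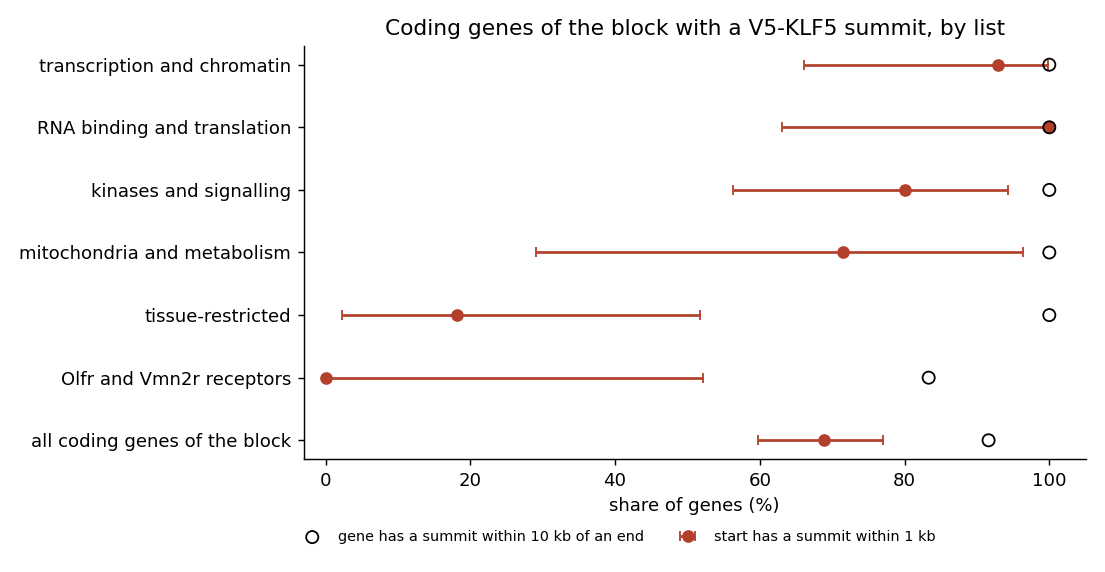
For each gene list other than that of the 2 Zfp genes, open circles give the share of its coding genes in the block that had a summit no farther than 10 kb from an end, and filled red circles give the share of those with an annotated start that had a summit within 1 kb of it, with exact 95% Clopper-Pearson intervals. The open circles of 5 lists stand at 100%, while the filled circles stand at 0% for the Olfr and Vmn2r receptors, 18.2% for tissue-restricted genes and 100% for RNA-binding and translation genes.

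Promoter sequence was set beside the calls. Starts with a summit within 1 kb and those without differed in letters as well as in base composition. In the 250 bases upstream, GGGCGGG was found at 56.9% (46.7 to 66.6) of the 102 block starts with a summit and at 14.5% (6.50 to 26.7) of the 55 without, while 31.1% of all 21262 promoters in the genome table held it. GGGNGTGG was found at 30.4% (21.7 to 40.3) and 9.09% (3.02 to 20.0), beside 17.7% of all promoters. CCACCC did not follow them, with 37.3% (27.9 to 47.4) of block starts with a summit and 49.1% (35.4 to 62.9) of those without, beside 30.2% of all promoters. The starts of 1 gene were counted separately, so the 102 starts belonged to 82 genes and the 55 to 46. In the rest of chromosome 10 GGGCGGG was found at 49.6% of starts with a summit and 11.1% of those without, and GGGNGTGG at 25.9% and 10.9%, which is the same direction as in the block. There CCACCC was found at 36.4% (32.0 to 41.0) of the 456 starts with a summit and at 20.2% (16.4 to 24.5) of the 396 without. Block starts with a summit had a median of 63.2% G and C and 17 CpG in the window, against 56.8% and 5 in those without. In the rest of chromosome 10 these medians were 62.4% and 17.5 with a summit, and 47.2% and 3 without. The part of base composition in the motif shares was not tested. A match is only a run of letters and does not show a bound site.

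The 10 genes with the most summits within 10 kb of an end were Midn with 16, Zbtb7a with 13, Atp5d with 12, Plppr3 and Tjp3 with 11 each, and Cbarp, Adamtsl5, Gadd45b, Nfic and Celf5 with 10 each. These counts share peaks, because Cbarp, Atp5d and Midn are neighbours. The densest runs within 20 kb were 12 summits at Zbtb7a, 12 inside Nfic and 11 over Cbarp, Atp5d and Midn. A run of 13 summits in the rest of chromosome 10 was longer than any of them.

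Zbtb7a (81135225 to 81152222) held 11 summits in its body, and its run had pileups of 14 to 176. To either side of the highest stood summits at 81137442 with a pileup of 64, at 81143131 with 45 and at 81146090 with 49. Lower summits stood among these, at 81138352 with 23, at 81140004 with 14 and at 81144900 with 16. The summit 212 bp inside the left end of the gene had 47. Nfic (81396191 to 81431919) held 17 summits in its body, the most of any gene in the block. They were lower, with a highest pileup of 88 at 81416792, followed by 55 at 81401918 and 44 at 81409517, and the run had pileups of 14 to 88. Celf5 (81459227 to 81482730) held 8, and beside its highest at 153 there was a summit of 62 at 81472539, 324 bp downstream of an annotated start. A pileup of at least 60 was reached by 2 of the 11 body summits of Zbtb7a, 1 of the 17 of Nfic and 2 of the 8 of Celf5.

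The run over Cbarp, a calcium-channel regulator gene, Atp5d, an ATP synthase subunit gene, and Midn, which encodes midnolin, a protein of proteasomal degradation, spanned 17.1 kb with pileups of 13 to 60. Its tallest summits, at 80141486 and 80149176, both had 60, with fold enrichments of 12.1 and 14.9. Beyond the far end of Midn stood the longest peak of the block, 3666 bp at 80158433 to 80162098, with a pileup of 74 and a fold enrichment of 10.5. Stk11 (80115767 to 80130679), next to this run, had a single summit in its body, at 80126478 with a pileup of 13, and the peak at its start at 80115359 to 80116065 had a pileup of 34 and a fold enrichment of 7.24. Sbno2, a gene of the strawberry notch family, held 7 summits in its body with a highest pileup of 42.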

How the data were processed

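The peak lists of the 3 immunoprecipitates were used, each called on 1 library against the input of the same cells. Per the file headers, the authors made them with MACS2 2.1.0.20140616, with 51 bp tags, an extension to 250 bp in place of a modelled fragment size, at most 1 tag per position, the larger dataset scaled to the smaller, an effective genome size of 1.87 Gb and a q-value cutoff of 0.05. Per the submitters' processing notes, the build was mm10 and Bowtie 0.12.8 was among the tools. The authors deposited for each peak its position, the pileup signal, the fold enrichment (a ratio over input), the −log10 p-value and the −log10 q-value. From the pileup and the fold enrichment the input background was recovered. The scaling of libraries sets all pileups of the list alike.

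Gene positions and starts came from RefSeq tables of GRCm38.p6, and 829 of the 1001 coding genes of chromosome 10 had an annotated start. Distances, shares and densities were computed with Python 3.11.15, pandas 2.3.3, NumPy 2.4.6 and SciPy 1.17.1, and the counting steps were tested on simulated positions. Intervals of single values are exact (Clopper-Pearson, Poisson or order statistics) at 95% and cover counting error only, since each group was 1 library. No p-value was computed. The rest of chromosome 10 was counted from its first to its last annotated gene. A gene was in the block if it overlapped it.

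The peaks and genes named were the 10 peaks of highest pileup and of highest fold enrichment, the genes Midn, Stk11, Zbtb7a, Nfic and Celf5, the 10 genes with most summits, the widest gaps and densest runs, and the listed genes. The members, the lists and the rules were chosen with earlier results of these data known. Of the listed symbols, 1 (Aes, an older name of Tle5 in the gene table) had no entry of its own, and Tle5 was counted once.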

Additional observations from a re-analysis of the deposited data

How the results depend on the processing

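Each result was recomputed under the settings that apply to it, 35 values in all, and 14 of them left the interval of the main value. For spacing, pileup and the shares, that interval carried the error of the block only, with the rest held at its value. The ratios and the gaps in shares kept their direction under the settings run. The ratio of summit density, 6.42, became 9.47 among peaks enriched at least 10-fold, 8.68 with the block narrowed by 0.5 Mb on each side and 4.99 with it widened as much; by construction the narrower block leaves out most of the sparse arms. The ratio of median spacing, 0.247, became 0.171 among peaks enriched at least 10-fold. The difference in median pileup was 0 and so had no direction, and it became 3 (29 in the block, 26 in the rest) at a −log10 q of at least 5 and 6 (41 and 35) at a −log10 q of at least 10, and it was -0.5 among peaks enriched at least 10-fold. The gap in coding genes with a summit within 10 kb, 22.0 percentage points, became 26.2 and 37.8 at a −log10 q of at least 5 and 10, 33.1 among peaks enriched at least 10-fold, 30.9 and 15.7 with the block narrowed and widened, 10.7 within 50 kb and 36.9 with all annotated genes. The gap in summits within 1 kb of a gene end, 12.3 points, became 21.3 at a −log10 q of at least 10. For these changes other than the narrowed block the cause was not tested. Depth limits the weak end of the lists, where peaks just under the cutoff are not seen. No paired analysis was possible because each group was 1 library.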
